A study of Mus musculus with 21 samples.

Results

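The matrix metalloproteinases (MMPs), the ADAMTS proteases with their ADAMTS-like relatives, and the tissue inhibitors of metalloproteinases (TIMPs) were examined in mouse heart RNA after doxorubicin (DOX) treatment with or without a 4T1 tumor. The genes were taken by symbol: every MMP, ADAMTS, ADAMTS-like and TIMP symbol of the table, without the neutrophil genes Mmp8 and Mmp9. This gave 49 of 56691 genes, namely 21 MMPs, 19 ADAMTS genes, 5 ADAMTS-like genes and 4 TIMPs. The Control group held 5 libraries from mice without a tumor that received saline, and the DOX group held 5 libraries from mice without a tumor that received DOX. The Tb group held 6 libraries from tumor-bearing mice on saline, and the Tb-DOX group held 5 from tumor-bearing mice on DOX. DOX is an anthracycline used in chemotherapy that damages the heart, and it was injected into the abdomen at 5 mg/kg once weekly for 3 weeks. 4T1 is a mouse breast cancer cell line, and the tumors were grown from cells injected under the skin. Strain, age and sex of the mice were not given in the sources used here, and the labels do not say whether each library came from its own animal, so the p-values measure the spread between these libraries. In the labels the tumor line 4T-1 is given as source for each of the 21 libraries, although the study's methods speak of hearts. The summed level of 5 cardiomyocyte genes was 10042 to 16039 FPKM in these libraries, and that of 4 epithelial genes was 0.11 to 2.46 FPKM. FPKM, read counts divided by gene length and library total, is a level per gene length that was used wherever genes are compared.

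MMPs are zinc-dependent endopeptidases that are made as inactive proenzymes and cleave collagens, proteoglycans and other matrix proteins, either after secretion or from the cell membrane. ADAMTS proteases are secreted enzymes with thrombospondin repeats that cleave proteoglycans such as versican or remove the propeptides of fibrillar procollagens, whereas ADAMTS-like proteins lack the protease domain and bind fibrillin microfibrils. TIMPs bind the active site of MMPs, and Timp3, which stays bound to the matrix, also inhibits several ADAMTS enzymes. In the heart the balance of these proteins is known for its part in the turnover of the interstitial matrix, and Timp4 is known for its abundance there.

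Each library held 13521200 to 18601445 counts. Tb replicate 5 stood apart from the rest: its median correlation with the rest of its group was 0.931, against 0.961 to 0.981 for the other 20 libraries, and it held 74.6 FPKM of the immediate early gene Fos where the other Tb libraries held 0.45 to 6.09. DOX replicate 4 held 66.7 FPKM of the T cell gene Cd3e, where the other DOX libraries held 0.98 to 3.49. Where removing either library changed a call of an MMP, ADAMTS or TIMP gene described here, the value without it is given beside the result or where Tb replicate 5 is described. Genes with a mean of at least 0.5 FPKM over all libraries were tested on their counts (13990 genes), and a call is an adjusted p under 0.05 in edgeR over all of them.

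Of the 49 genes, 27 passed the minimum (9 MMPs, 10 ADAMTS genes, all 4 TIMPs and 4 of 5 ADAMTS-like genes). Of these, Mmp25 passed only through the tumor groups (2.03 FPKM with and 0.027 FPKM without a tumor), and Adamts4 only through Tb replicate 5, without which its mean was 0.272 FPKM. They had to differ between groups to be tested, so their calls, which are part of the counts given, support nothing by themselves. Inhibitors led the order of levels: Timp3 had the highest mean over all libraries at 31.8 FPKM, followed by Timp2 at 23.2 FPKM. The proteoglycan-cleaving enzyme Adamts1 followed at 17.5 FPKM, a mean raised by 94.8 FPKM in Tb replicate 5, then Adamtsl5 at 11.7 FPKM and the gelatinase Mmp2 at 11.5 FPKM. Timp4 was close behind at 11.1 FPKM, and Timp1 was the lowest inhibitor at 2.65 FPKM. The most abundant membrane-type MMP was Mmp15 at 7.29 FPKM over all libraries, although in the DOX group Mmp14 (5.57 ± 2.01 FPKM, SD, n = 5) was above Mmp15 (3.93 ± 1.27 FPKM, n = 5).

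**Figure D1:**
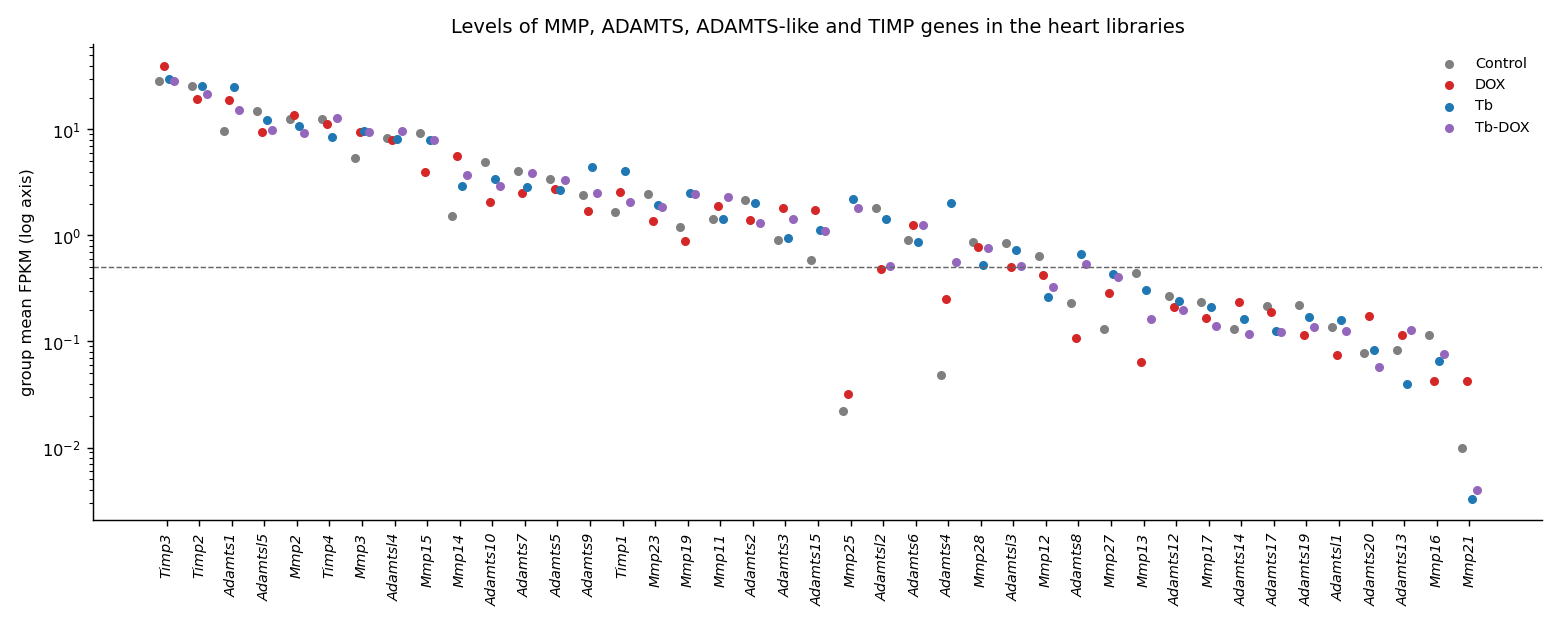
Mean FPKM of each group (log axis) for the 41 genes with a mean above 0.01 FPKM, ordered from left to right by their mean over all 21 libraries, with the dashed line at the minimum of 0.5 FPKM and with group means of 0 not drawn. Timp3 and Timp2 lie at the top in every group, and of the 27 genes above the line Mmp25 and Adamts4 show the widest gaps between groups.

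The first comparison asks which of these genes DOX changed in hearts without a tumor. Compared with Control, 5 of the 27 genes were higher in DOX and 8 were lower. Mmp14, Adamts15, Adamts3, Adamts6 and Timp3 rose, and Adamtsl2, Adamts10, Mmp15, Mmp23, Adamtsl3, Adamtsl5, Adamts2 and Timp2 fell. The share that rose, 18.5%, lay beside 18% of all genes tested, and the share that fell, 29.6%, lay beside 18.2%. A change of at least 2-fold was called for 6 genes (22.2%), against 9.95% of all genes. In FPKM the DOX and Control libraries did not overlap for 10 of the 27 genes (37.0%), against 25.2% of all genes, and with TMM-scaled CPM in place of FPKM for 8, against 25.3%. The median log2 fold change over the 27 genes was 0.02, and the median over all genes was 0.00.

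**Figure D2:**
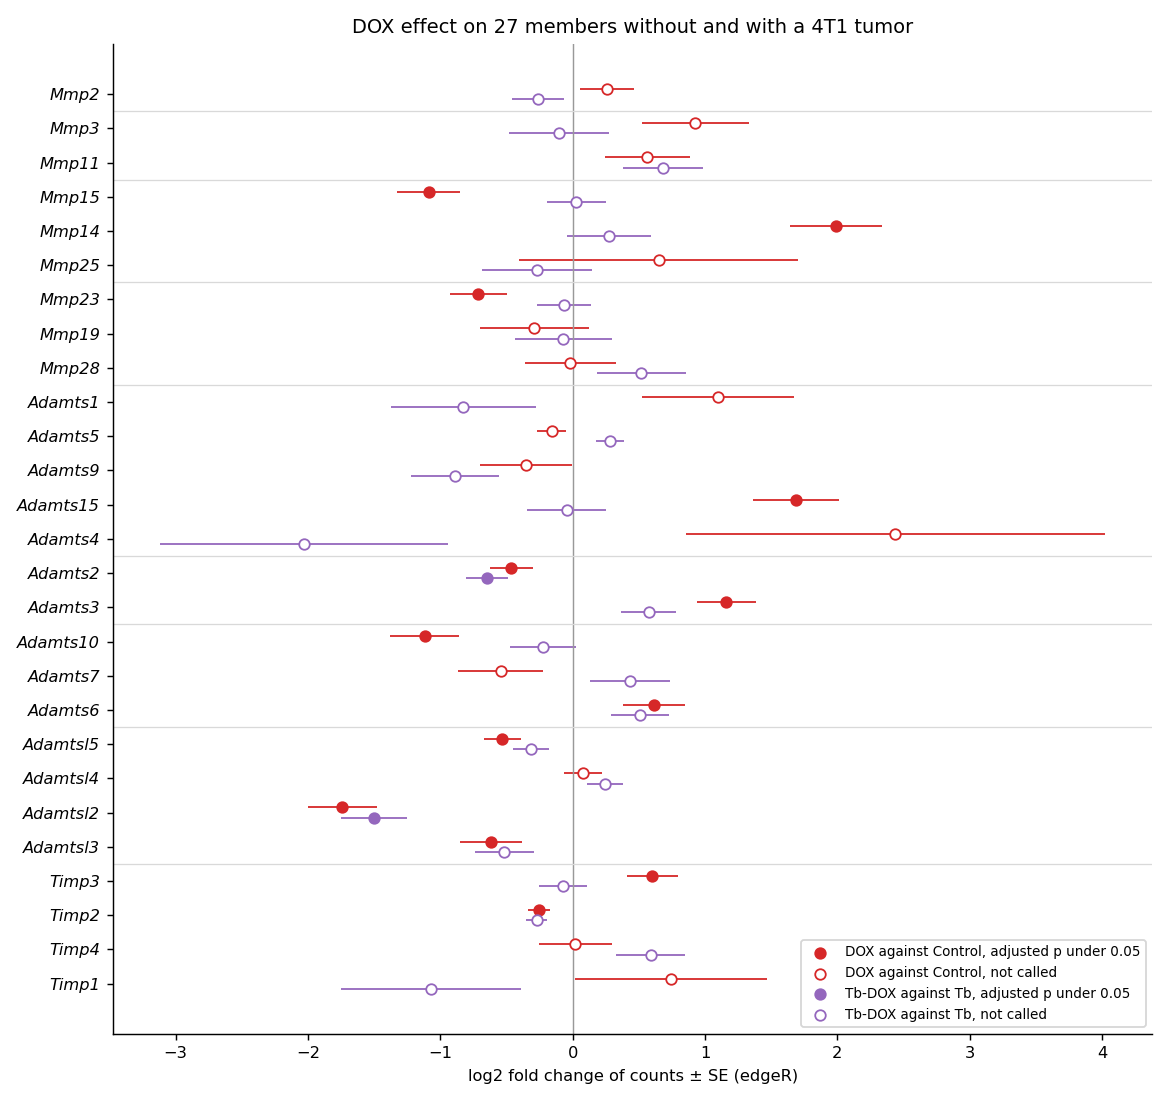
Log2 fold change of counts with its SE for the 27 genes tested, grouped by class from MMPs at the top to TIMPs at the bottom, in DOX against Control (red, n = 5 and 5) and in Tb-DOX against Tb (purple, n = 5 and 6), filled where the adjusted p was under 0.05. Mmp14 lies at 1.99 without a tumor and at 0.27 with one (0.69 without Tb replicate 5), whereas Adamtsl2 lies at −1.74 and −1.50.

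Of the 3 membrane-type MMPs tested, Mmp14 rose, Mmp15 fell and Mmp25 was not called. Mmp14, which activates the Mmp2 proenzyme at the cell surface and cleaves fibrillar collagen, is encoded on chromosome 14 from 54669069 to 54682821 (plus strand, GRCm39). It was measured at 1.38, 1.38, 2.31, 1.12 and 1.51 FPKM in the 5 Control libraries and at 4.28, 4.63, 8.51, 6.76 and 3.69 FPKM in the 5 DOX libraries. Every DOX library was above every Control library, a log2 difference of 1.99 ± 0.35 (SE, n = 5 each, edgeR adjusted p = 0.000201), or 3.97-fold. Mmp15, a related membrane-anchored protease on chromosome 8 from 96078896 to 96101708 (plus strand), was measured at 7.21, 6.81, 9.6, 10.98 and 11.58 FPKM in Control and at 4.31, 4.45, 3.15, 2.23 and 5.53 FPKM in DOX. Here every DOX library was below every Control library, and the log2 fold change was −1.09 ± 0.24 (adjusted p = 0.0014). Both calls were kept whichever of the 21 libraries was removed. Their promoters are shown because the genes share a class and changed in opposite directions. They are given as the 250 bases before the RefSeq start, 5′ to 3′, from chr14:54431348-54431597, plus strand, and chr8:95352046-95352295, plus strand (GRCm38.p6), and capitals mark the GC box letters GGGCGG on either strand, found in the windows of 57.1% of the 35 genes with a RefSeq promoter and of 32.7% of all promoters.
Mmp14: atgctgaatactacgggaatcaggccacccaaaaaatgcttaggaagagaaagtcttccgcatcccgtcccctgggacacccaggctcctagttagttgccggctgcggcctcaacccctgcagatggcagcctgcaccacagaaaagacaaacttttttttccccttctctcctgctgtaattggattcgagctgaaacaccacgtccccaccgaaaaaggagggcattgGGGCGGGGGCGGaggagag
Mmp15: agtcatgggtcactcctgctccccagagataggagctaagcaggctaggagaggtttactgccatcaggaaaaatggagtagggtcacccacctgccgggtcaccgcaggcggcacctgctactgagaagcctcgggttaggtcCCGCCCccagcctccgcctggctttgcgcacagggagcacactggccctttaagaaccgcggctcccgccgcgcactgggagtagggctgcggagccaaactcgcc
Mmp14 held 2 GC boxes side by side near the start, and Mmp15 held 1 on the other strand. Neither window held the AP-1 letters TGANTCA or the TATA box letters TATAAA.

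**Figure D3:**
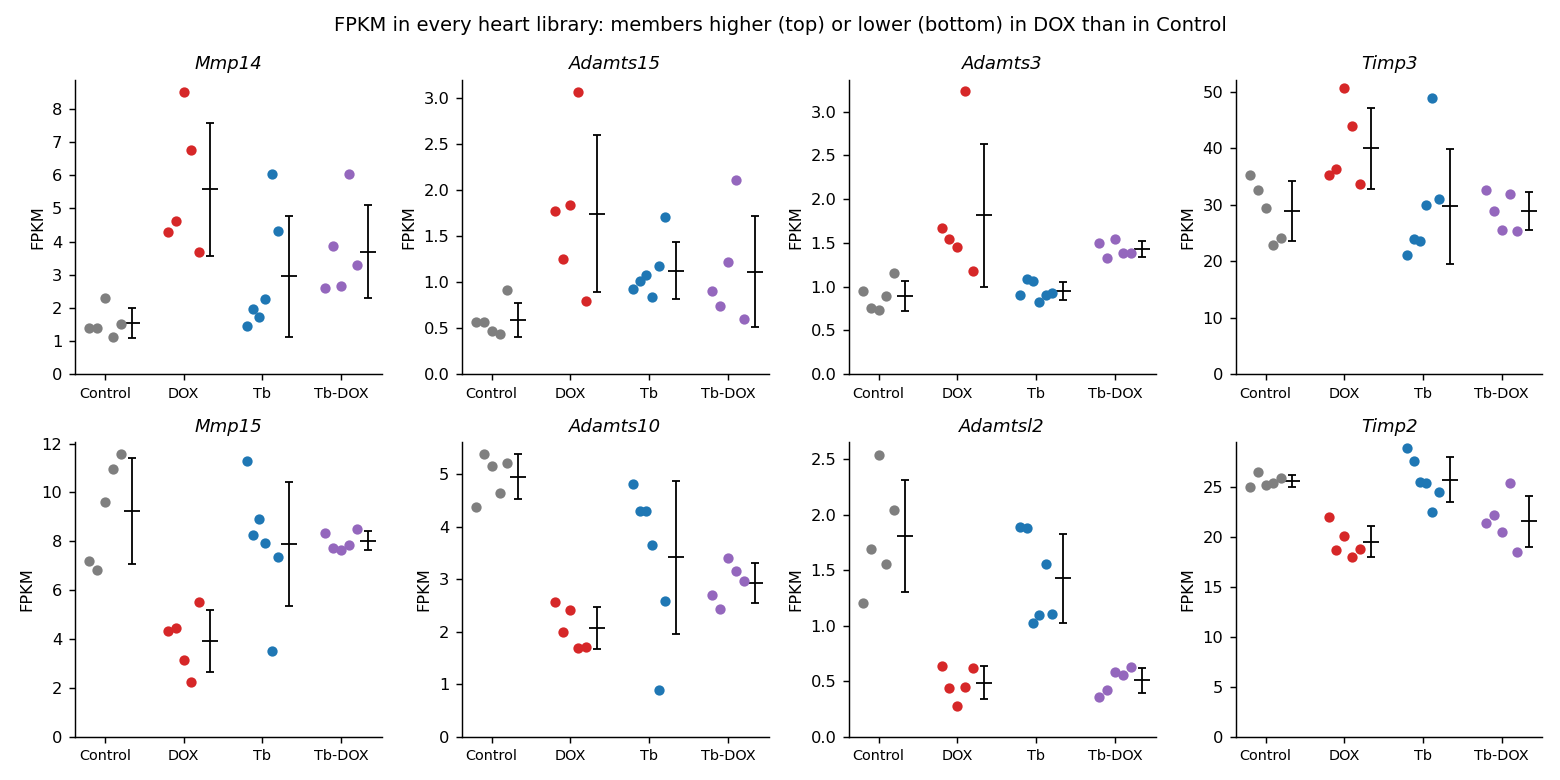
FPKM in each of the 21 libraries for 4 genes that were higher (top) and 4 that were lower (bottom) in DOX than in Control, with dots for libraries and black bars for the group mean ± SD. The DOX dots of Mmp14 (3.69 to 8.51 FPKM) lie above all Control dots, and those of Adamtsl2 (0.28 to 0.64 FPKM) lie below all Control dots (1.21 to 2.54 FPKM).

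Among the remaining MMPs only Mmp23, a small MMP without the usual hemopexin domain, passed the test in this comparison. It was measured at 2.8, 2.31, 2.87, 2.75 and 1.49 FPKM in Control and at 1.61, 1.17, 1.63, 1.45 and 0.92 FPKM in DOX. The groups overlapped through Control replicate 5, and the log2 fold change was −0.71 ± 0.21 (adjusted p = 0.0124). Mmp3, stromelysin-1, lay at 5.43 ± 2.04 FPKM in Control and 9.38 ± 3.0 FPKM in DOX (SD, n = 5 each), a difference that did not pass the test (0.93 ± 0.41, adjusted p = 0.0784). Without Tb replicate 5, which enters the estimate of the spread, it did (0.93, adjusted p = 0.0162), but not without DOX replicate 4 as well (0.77, adjusted p = 0.0524). For stromelysin-3 (Mmp11) the values were 0.56 ± 0.32 (adjusted p = 0.178) with all libraries and 0.57 (adjusted p = 0.0473) without Tb replicate 5, but 0.43 (adjusted p = 0.1505) without both libraries, and its span overlaps Chchd10 (mean 78.3 FPKM) on the opposite strand. The gelatinase Mmp2 differed by 0.26 ± 0.20 (adjusted p = 0.332).

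In the ADAMTS family 3 genes rose and 2 fell. Adamts15, a versican- and aggrecan-cleaving protease on chromosome 9, was measured at 0.57, 0.57, 0.47, 0.44 and 0.91 FPKM in Control and at 1.77, 1.25, 1.84, 3.07 and 0.8 FPKM in DOX. The groups overlapped only through DOX replicate 5, and the log2 fold change was 1.69 ± 0.33 (adjusted p = 0.000483). Adamts3 removes the N-propeptide of procollagen and takes part in the activation of the lymphatic growth factor VEGF-C. It was measured at 0.95, 0.76, 0.73, 0.89 and 1.16 FPKM in Control and at 1.67, 1.54, 1.45, 3.24 and 1.18 FPKM in DOX, where replicate 5 lay just above the highest Control library. The log2 fold change was 1.16 ± 0.22 (adjusted p = 0.000459). DOX replicate 4, the library with the high Cd3e value, was the highest DOX library for both genes, and both were still called without it and Tb replicate 5 (Adamts3 0.82, adjusted p = 0.000493; Adamts15 1.36, adjusted p = 0.00113).

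Adamts10, a protease that binds fibrillin microfibrils, fell as well. It was measured at 4.37, 5.38, 5.15, 4.64 and 5.22 FPKM in Control and at 2.57, 1.99, 2.41, 1.7 and 1.71 FPKM in DOX, with no overlap and a log2 fold change of −1.12 ± 0.26 (adjusted p = 0.00226). Adamts6, its closest relative, went the other way, from 0.904 ± 0.2 to 1.25 ± 0.381 FPKM (0.62 ± 0.23, adjusted p = 0.0436). Adamts2, the main procollagen N-propeptidase of skin, fell from 2.15 ± 0.280 to 1.41 ± 0.275 FPKM (−0.47 ± 0.16, adjusted p = 0.0298), opposite to Adamts3. The calls of Adamts2 and Adamts6 were each lost on removal of any 1 of several libraries. Without Tb replicate 5 both were called (−0.46, adjusted p = 0.0232, and 0.62, adjusted p = 0.027). Without DOX replicate 4 as well, Adamts2 was called (−0.59, adjusted p = 0.0044) and Adamts6 was not (0.51, adjusted p = 0.0807). For Adamts2 the call was lost without Control replicate 1 (−0.37, adjusted p = 0.0933) or 2 (adjusted p = 0.0571), or without DOX replicate 2, 3 or 5 (adjusted p = 0.0647, 0.0846 and 0.0735). For Adamts6 it was lost without Control replicate 1, 3 or 4, DOX replicate 1, 2 or 4, or Tb-DOX replicate 1 or 2, with log2 fold changes of 0.52 to 0.62 and adjusted p of 0.0503 to 0.111, and it was also lost when counts were scaled by library totals alone.

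The proteoglycan-cleaving enzymes other than Adamts15 did not pass the test in this comparison. Adamts1 lay at 13.12, 9.28, 10.74, 7.8 and 7.72 FPKM in Control and at 12.37, 12.13, 16.29, 25.7 and 27.84 FPKM in DOX. Its log2 fold change of 1.10 ± 0.57 had an adjusted p of 0.138 in all libraries and of 0.00257 without Tb replicate 5, and it was still called without DOX replicate 4 as well (0.94, adjusted p = 0.0101). Adamts4 differed by 2.44 ± 1.58 (adjusted p = 0.238) at levels of 0.00 to 0.45 FPKM in both groups. Adamts5 differed by −0.16 ± 0.11 (adjusted p = 0.268) and Adamts9 by −0.36 ± 0.35 (adjusted p = 0.441). The Adamts9 libraries of DOX and Control did not overlap in FPKM, and its adjusted p was 0.0525 without Tb replicate 5, where the SE was 0.14, and 0.0446 without both libraries (−0.40). When counts were scaled by library totals alone, all genes together had a median of −0.14 in place of 0.00, and Adamts5 was then called lower.

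Of the 4 ADAMTS-like genes tested, 3 fell. Adamtsl2, which binds fibrillin and a latent TGF-beta binding protein, lies on chromosome 2 from 26969391 to 26998993 (plus strand, GRCm39). It was measured at 1.21, 1.69, 2.54, 1.56 and 2.04 FPKM in Control and at 0.64, 0.44, 0.28, 0.45 and 0.62 FPKM in DOX. Every DOX library was below every Control library, and the log2 fold change was −1.74 ± 0.26 (adjusted p = 4.69e-05), or 3.34-fold lower. Adamtsl5 fell from 15.1 ± 1.59 to 9.50 ± 1.88 FPKM (−0.53 ± 0.14, adjusted p = 0.00628), again without overlap. Adamtsl3 fell from 0.856 ± 0.220 to 0.508 ± 0.0832 FPKM (−0.62 ± 0.23, adjusted p = 0.0417), a call that was lost without Control replicate 2, 3 or 4, any of DOX replicates 1, 3, 4 and 5, Tb replicate 3 or Tb-DOX replicate 3 (log2 fold changes of −0.65 to −0.47, adjusted p of 0.0503 to 0.133). Adamtsl4 lay at 8.29 ± 0.941 and 7.90 ± 2.03 FPKM (0.08 ± 0.14, adjusted p = 0.699). The Adamtsl2 promoter is shown because the gene was lower with DOX in both tumor states. It is given as above from chr2:27079129-27079378, plus strand (GRCm38.p6), with capitals for a GC box and a TATA box.
Adamtsl2: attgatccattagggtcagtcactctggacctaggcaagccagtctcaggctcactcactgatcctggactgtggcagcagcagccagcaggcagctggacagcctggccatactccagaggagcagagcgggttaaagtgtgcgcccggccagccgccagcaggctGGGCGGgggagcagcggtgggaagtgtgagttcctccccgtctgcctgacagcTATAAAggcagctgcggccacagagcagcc
Of all promoters 12.4% held the TATA box letters on either strand, and of the 35 genes 28.6%. The Adamtsl2 window held 1 TATA box near the start and 1 GC box upstream of it.

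Of the 4 TIMPs, 1 rose and 1 fell. Timp3 was measured at 35.21, 32.69, 29.53, 22.86 and 24.1 FPKM in Control and at 35.29, 36.35, 50.63, 44.02 and 33.76 FPKM in DOX, and the groups overlapped at 33.76 to 35.21 FPKM. It rose by 0.60 ± 0.19 on the log2 scale (adjusted p = 0.0187), a call that was lost without Control replicate 4 (0.54, adjusted p = 0.0521) or Control replicate 5 (0.54, adjusted p = 0.0504). Timp2, which inhibits MMPs and also takes part in the activation of Mmp2 by Mmp14, was measured at 24.96, 26.42, 25.15, 25.36 and 25.87 FPKM in Control and at 21.96, 18.68, 20.07, 17.97 and 18.78 FPKM in DOX. All DOX libraries were below all Control libraries in FPKM, and the log2 fold change of −0.25 ± 0.08 (adjusted p = 0.0216) was the smallest of those called. This call was lost without Control replicate 2 (−0.23, adjusted p = 0.0527), DOX replicate 3 (−0.22, adjusted p = 0.0602) or DOX replicate 4 (−0.23, adjusted p = 0.0562). Timp4 (0.02 ± 0.28, adjusted p = 0.965) and Timp1 (0.74 ± 0.73, adjusted p = 0.443) did not pass the test, and Timp1 ranged from 0.32 to 5.82 FPKM within the DOX group.

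Cell type markers moved along with these changes. Of 5 fibroblast markers (Pdgfra, Tcf21, Dcn, Lum and Dpt), 1 rose and 2 fell with DOX, and their summed level was 247 to 296 FPKM in Control and 159 to 253 FPKM in DOX. Of 5 macrophage markers 4 fell, with sums of 106 to 131 FPKM in Control and 43.5 to 75.7 FPKM in DOX. Of 5 endothelial markers 1 fell, and their sum was 103 to 126 FPKM in Control and 77.01 to 116 FPKM in DOX. All 5 erythroid markers fell too, with sums of 252 to 1093 FPKM in Control and 4.77 to 146 FPKM in DOX. The cartilage marker Comp (−2.22 on the log2 scale) fell as well. Other markers rose. Of 5 cardiomyocyte markers Myh6 (0.43) and Tnnt2 (0.96) did, with sums of 10839 to 16039 FPKM in Control and 13526 to 15837 FPKM in DOX, and of 5 mural cell markers Pdgfrb (0.60) did. Of 5 neutrophil markers S100a8 (4.16), S100a9 (3.62) and Retnlg (7.02) rose, as did the T cell marker Cd3e (6.61 on the log2 scale, and 3.68 without DOX replicate 4, adjusted p = 0.0137). Cd3e alone of the 5 T cell markers listed passed the minimum (Cd3d, Cd4, Cd8a and Rag1 did not). The sum of the 5 was 0.02 to 0.57 FPKM in Control and 1.17 to 66.99 FPKM in DOX (median 2.23). In DOX replicate 4 Cd3e by itself held 66.73 FPKM. None of these markers was at 0 throughout, and their part in the changes of the MMP, ADAMTS and TIMP genes was not tested. In heart pieces fewer cells of a type and less RNA per cell cannot be told apart.

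The next comparison asks the same question in tumor-bearing mice. Compared with Tb, 0 of the 27 genes were higher in Tb-DOX, where 2.18% of all genes tested were, and 2 were lower (7.41%), where 2.54% of all genes were. With edgeR 11 of the 27 (40.7%) had an unadjusted p under 0.05, where 20.4% of all genes had, and DESeq2 called 0 higher and 3 lower, where it called 3.27% of all genes higher and 4.18% lower. A change of at least 2-fold was called for 1 gene, Adamtsl2, against 1.11% of all genes, and the groups did not overlap for Adamtsl2 and Adamts3, against 4.3% of all genes. Adamtsl2 was measured at 1.03, 1.335 and 1.89 FPKM (lowest, median and highest of 6) in Tb and at 0.36, 0.42, 0.58, 0.56 and 0.63 FPKM in Tb-DOX. It fell by 1.5 on the log2 scale (SE 0.25, adjusted p = 0.00201), and no Tb-DOX library reached the lowest Tb library. This call held whichever library was removed. Adamts2 was measured at 1.8, 2.045 and 2.22 FPKM (lowest, median and highest) in Tb and at 1.04, 1.23, 1.17, 2.03 and 1.12 FPKM in Tb-DOX. Only Tb-DOX replicate 4 reached the Tb range, and the log2 fold change was −0.65 ± 0.16 (adjusted p = 0.0215). This call was lost without Tb-DOX replicate 1 (−0.58, adjusted p = 0.0667), 2 (adjusted p = 0.0524), 3 (adjusted p = 0.0534) or 5 (adjusted p = 0.0636).

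The other genes named above did not pass the test in tumor-bearing mice. Adamts3 lay at 0.83 to 1.09 FPKM in Tb and at 1.33 to 1.55 FPKM in Tb-DOX, with no overlap, but its log2 fold change of 0.57 ± 0.21 had an adjusted p of 0.119. Without DOX replicate 4 it was called (0.57, adjusted p = 0.0282), although that library is in neither group and enters through the spread alone. Timp2 differed by −0.27 ± 0.08 (adjusted p = 0.0539), and Adamtsl3 by −0.52 ± 0.22 (adjusted p = 0.188). Timp2 was called with DESeq2 (adjusted p = 0.0165) and without Control replicate 3, DOX replicate 1 or Tb replicate 6 (adjusted p = 0.0478, 0.0479 and 0.0219). The inhibitor Timp4 lay at 8.54 ± 4.55 FPKM in Tb and 12.8 ± 2.70 FPKM in Tb-DOX (0.59 ± 0.26, adjusted p = 0.209), and it was called higher without Tb replicate 6 (0.85, adjusted p = 0.0369). Timp3 differed by −0.07 ± 0.18 (adjusted p = 0.864) and Timp1 by −1.07 ± 0.68 (adjusted p = 0.395). Without Tb replicate 5 these values were 0.18 (adjusted p = 0.420) and −0.05 (adjusted p = 0.974), so the sign of Timp3 and the size for Timp1 rested on that library.

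Markers moved in tumor-bearing mice too. All 5 erythroid markers fell with DOX (sums of 527 to 975 FPKM in Tb and 2.96 to 39.97 FPKM in Tb-DOX), as did the fibroblast markers Lum (−1.08) and Dpt (−0.80) and the macrophage markers Adgre1 (−0.95) and Csf1r (−0.55). Fibroblast sums were 230 to 249 FPKM in Tb and 158 to 228 FPKM in Tb-DOX, and macrophage sums were 147 to 222 and 94.9 to 257 FPKM. The cardiomyocyte markers Myh6 (0.42) and Tnnt2 (0.76) and the mural markers Pdgfrb (0.40) and Kcnj8 (0.55) rose on the log2 scale, and 0 of 5 neutrophil markers were called. The part of these cell types in the Adamtsl2 and Adamts2 differences was not tested.

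Whether the DOX effect differed with a tumor was tested by the interaction, the log2 fold change in tumor-bearing mice minus that in mice without a tumor. It was called for 3 of the 27 genes, Mmp15 above 0 (1 gene, against 3.95% of all genes) and Mmp14 and Adamts15 below 0 (2 genes, against 5%). Markers were called in the interaction too, below 0 the neutrophil markers S100a8 (−4.32), S100a9 (−3.88) and Retnlg (−7.54), the T cell marker Cd3e (−7.60) and the erythroid marker Alas2 (−2.50). Above 0 were the fibroblast marker Lum (1.13), the endothelial marker Tie1 (0.47), the cartilage marker Comp (1.51) and the germ cell marker Tnp1 (10.7). The values of Cd3e (−4.67), Alas2 and Comp were not called without DOX replicate 4, nor those of Cd3e (−4.93) and Comp without Tb replicate 5, nor that of S100a8 (−3.88) without both. The part of these cell types in the interactions below was not tested. Mmp14 lay at 1.45, 2.105 and 6.04 FPKM (lowest, median and highest) in Tb and at 2.61, 3.85, 2.67, 6.04 and 3.3 FPKM in Tb-DOX. The tumor groups overlapped (log2 fold change 0.27 ± 0.32, adjusted p = 0.679), and the interaction was −1.72 ± 0.47 (adjusted p = 0.0297). The highest Tb value was that of Tb replicate 5, without which the DOX effect with a tumor was 0.69 ± 0.25 (adjusted p = 0.113) and the interaction −1.31 ± 0.36 (adjusted p = 0.0277). The interaction call was lost without Control replicate 2 or 4, DOX replicate 3 or 4, or Tb-DOX replicate 1 or 3, with values of −1.69 to −1.57 and adjusted p of 0.0505 to 0.0588. Without DOX replicate 4 and Tb replicate 5 together it was made (−1.21, adjusted p = 0.0488). It was not made by limma on log2(FPKM + 1) (−1.02, adjusted p = 0.0805) or log2(FPKM + 0.1) (−1.33, adjusted p = 0.0735).

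Adamts15 lay at 0.84, 1.045 and 1.71 FPKM (lowest, median and highest) in Tb and at 0.9, 0.74, 1.22, 2.11 and 0.6 FPKM in Tb-DOX, so the tumor groups overlapped. Its DOX effect there was −0.05 ± 0.30, and the interaction was −1.74 ± 0.44 (adjusted p = 0.0239). This call was made in each of the 21 fits with a library removed, but not by limma on log2(FPKM + 1) (−0.78, adjusted p = 0.0662). Mmp15 lay at 3.5, 8.10 and 11.28 FPKM in Tb and at 8.35, 7.71, 7.66, 7.87 and 8.51 FPKM in Tb-DOX, the tightest group of this gene. Its DOX effect with a tumor was 0.03 ± 0.22, and the interaction was 1.11 ± 0.32 (adjusted p = 0.0370). This call was lost in 10 of the 21 fits: without Control replicate 3, 4 or 5, DOX replicate 3 or 4, Tb replicate 6, or Tb-DOX replicate 1, 2, 3 or 5, with values of 0.96 to 1.13 and adjusted p of 0.0504 to 0.0717. Without DOX replicate 4 and Tb replicate 5 together, Mmp15 (0.83, adjusted p = 0.0438) and Adamts15 (−1.36, adjusted p = 0.04425) were called in the interaction. For Adamtsl2 the interaction was 0.24 ± 0.35 (adjusted p = 0.687) and for Adamts10 0.90 ± 0.36 (adjusted p = 0.104, and 0.0436 without Tb replicate 5).

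The tumor itself, on saline, was followed by 2 higher genes and 1 lower gene (Tb against Control), where 5% of all genes were higher and 1.29% lower. Both higher genes, Mmp25 and Adamts4, had passed the minimum through tumor libraries alone. Mmp25 is a membrane-anchored MMP known as leukolysin for its expression in neutrophils. It was measured at 0.05, 0.01, 0, 0 and 0.05 FPKM in Control, from 0 to 4 counts per library, and at 0.53, 1.985 and 4.76 FPKM (lowest, median and highest) in Tb. The groups did not overlap, and the log2 fold change was 6.46 ± 0.67, given as a description since the high group admitted the gene. On DOX the same gene lay at 0.03, 0, 0.08, 0.05 and 0 FPKM without a tumor and at 2.37, 2.11, 1.28, 2.73 and 0.65 FPKM with a tumor (5.54 ± 0.65). Neutrophil markers moved the same way: all 5 (S100a8, S100a9, Retnlg, Ly6g and Csf3r) were higher in Tb than in Control, with sums of 1.65 to 4.8 FPKM in Control, 7.89 to 82.4 in DOX, 769 to 7135 in Tb and 1163 to 5583 in Tb-DOX. Ly6g was at 0 FPKM in all Control libraries. Among the other marker lists the macrophage marker Lyz2 was higher in Tb (0.73), and the endothelial marker Tie1 (−0.35, and −0.30 with adjusted p = 0.0548 without Tb replicate 5) and the germ cell marker Tnp1 (−4.81) were lower. Summed germ cell markers were at 1.07 to 4.03 FPKM in Control, up to 0.38 in DOX, up to 0.15 in Tb and up to 3.05 in Tb-DOX, and Tnp1 was called lower in DOX than in Control and higher in Tb-DOX than in Tb or DOX. The part of neutrophils in the Mmp25 level was not tested. The Mmp25 promoter, from chr17:23645270-23645519, minus strand (GRCm38.p6), is shown because no other gene of the set differed as much between groups, and capitals mark GC boxes.
Mmp25: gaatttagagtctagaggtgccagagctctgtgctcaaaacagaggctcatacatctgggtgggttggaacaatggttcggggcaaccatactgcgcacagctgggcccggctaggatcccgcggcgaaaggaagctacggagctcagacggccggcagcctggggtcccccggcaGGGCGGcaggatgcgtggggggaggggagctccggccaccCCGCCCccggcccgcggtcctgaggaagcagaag
It held 2 GC boxes, 1 on each strand, and neither AP-1 nor TATA box letters.

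**Figure D4:**
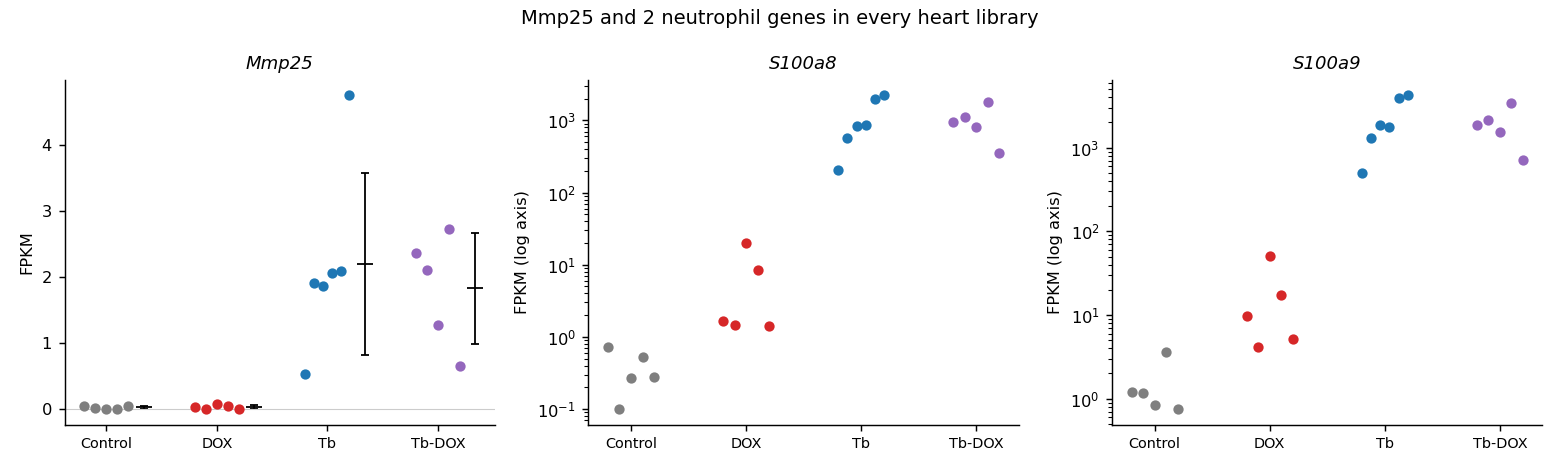
FPKM of Mmp25 (left, linear axis, black bars for mean ± SD) and of the neutrophil genes S100a8 and S100a9 (log axes) in each of the 21 libraries by group. Mmp25 stays at or below 0.08 FPKM in the 10 libraries without a tumor and reaches 0.53 to 4.76 FPKM in the 11 libraries with a tumor, and S100a8 goes from 0.10 to 19.9 FPKM to 205 to 2215 FPKM.

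Adamts4, Adamts5 and, on DOX, Mmp19 are named because they were called in a tumor comparison, after their values were seen. The call of Adamts4 depended on 1 library, and that of Adamts5 was lost on removal of any 1 of 11 libraries. Adamts4, an aggrecan-cleaving protease, lay at 0.08, 0.13 and 11.08 FPKM (lowest, median and highest) in Tb and at 0.00 to 0.18 FPKM in Control. The value of 11.08 FPKM came from Tb replicate 5, and the log2 fold change of 5.40 ± 1.45 (adjusted p = 0.0266) became 1.98 (adjusted p = 0.302) without it, when the gene would not have reached the minimum. Of the 27 genes tested, 16 have a span that overlaps another gene, 7 of them one at 0.5 FPKM or more, and whether counting used strand is not given in the sources used here. Adamts5, another aggrecan-cleaving protease, lay at 3 to 3.82 FPKM in Control and 2.24 to 2.92 FPKM in Tb without overlap (−0.36 ± 0.10, adjusted p = 0.0408). It was still called without Tb replicate 5 (−0.39, adjusted p = 0.0301) and without DOX replicate 4 as well (−0.39, adjusted p = 0.02999). It was not called in 11 of 21 refits with a library removed, namely without any 1 Control library, DOX replicate 2, Tb replicate 2, 3, 4 or 6, or Tb-DOX replicate 4 (−0.39 to −0.30, adjusted p of 0.05001 to 0.111). It was also not called when counts were scaled by library totals alone (−0.32, adjusted p = 0.0875), a scaling under which it was called in the interaction.

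On DOX, 3 genes were higher and 2 were lower with a tumor (Tb-DOX against DOX), where 9.52% of all genes were higher and 7.93% lower. Besides Mmp25, the tumor groups were higher for Mmp19, which cleaves basement membrane proteins (0.886 ± 0.376 FPKM in DOX and 2.46 ± 1.45 FPKM in Tb-DOX, 1.25 ± 0.40, adjusted p = 0.0362), and for Mmp15 (0.84 ± 0.24, adjusted p = 0.0185, no overlap). The lower genes were Mmp2 (13.7 ± 4.54 and 9.22 ± 3.05 FPKM, −0.76 ± 0.20, adjusted p = 0.0132) and Timp3 (40.01 ± 7.13 and 28.9 ± 3.40 FPKM, −0.65 ± 0.19, adjusted p = 0.0228). Every Timp3 value in Tb-DOX (25.44 to 32.66 FPKM) was below every value in DOX (33.76 to 50.63 FPKM). When counts were scaled by library totals alone, the median of all genes in this comparison moved to 0.18, and Mmp2 and Timp3 were not called. Without DOX replicate 3 or 4, Mmp15 (0.74 and 0.68, adjusted p = 0.0537 and 0.0562) and Timp3 (−0.60 and −0.61, adjusted p = 0.0588 and 0.0506) were not called. Without DOX replicate 4 and Tb replicate 5 together, Mmp15 (0.70, adjusted p = 0.00899), Timp3 (−0.60, adjusted p = 0.00194) and Mmp2 (−0.62, adjusted p = 0.016) were called. In that fit Mmp19 was not (1.04, adjusted p = 0.05895). Mmp19 was not called without DOX replicate 2, 3 or 4 or without Tb-DOX replicate 1, 2 or 4 (0.92 to 1.25, adjusted p of 0.0574 to 0.133). Markers differed in this comparison as well. All 5 neutrophil markers and 4 of 5 macrophage markers were higher in Tb-DOX (Lyz2 1.40, Adgre1 1.23, Csf1r 1.03 and C1qa 0.63), with macrophage sums of 43.5 to 75.7 FPKM in DOX and 94.9 to 257 FPKM in Tb-DOX. Of the fibroblast markers Lum was higher (0.65) and Pdgfra (−0.49) and Dcn (−0.40) were lower, and the mural marker Pdgfrb (−0.47), the T cell marker Cd3e (−4.07) and 2 of 5 erythroid markers were lower. Without DOX replicate 4, Cd3e (−1.13, adjusted p = 0.450), Lum (0.57), Dcn (−0.36) and both erythroid markers were not called. Their part in the differences of Mmp19, Mmp2 and Timp3 was not tested.

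Tb replicate 5 had extreme values in several genes. Adamts1 was at 94.78 FPKM there and at 7.85 to 18.3 FPKM in the other 5 Tb libraries. Adamts9, at 11.7 FPKM against 2.59 to 3.43, and Timp1, at 13.37 against 1.18 to 4.03, were also highest there. Mmp11 was lowest at 0.28 FPKM against 1.32 to 1.99, and Adamts10 at 0.89 against 2.59 to 4.81. The library also held 81.7 FPKM of Atf3 and 38.1 FPKM of Il6, where the other Tb libraries held 0.90 to 3.99 and 0.11 to 0.43 FPKM. With it the DOX effect on Adamts1 in tumor-bearing mice was −0.83 ± 0.55 (adjusted p = 0.420), and without it 0.49 (adjusted p = 0.309), so this library turned the sign of a value that was not called either way. Without Tb replicate 5, 17 of the 27 genes were called in DOX against Control (9 higher and 8 lower, including the 13 above and also Adamts4, then under the minimum), where 42.5% of all genes were called in place of 36.25%. In the interaction 5 were called, where 9.19% of all genes were, the added ones being Adamts5 (0.47, adjusted p = 0.0472) and Adamts10. In Tb-DOX against DOX 7 were called, where 24.9% of all genes were, the added ones being Mmp14 (−0.78, adjusted p = 0.0248) and Adamts15 (−0.87, adjusted p = 0.0441). Without DOX replicate 4 as well, these added calls were lost in Tb-DOX against DOX (Mmp14 −0.68, adjusted p = 0.0662; Adamts15 −0.54, adjusted p = 0.191) and in the interaction (Adamts5 0.47, adjusted p = 0.0656; Adamts10 0.65, adjusted p = 0.0737).

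**Figure D5:**
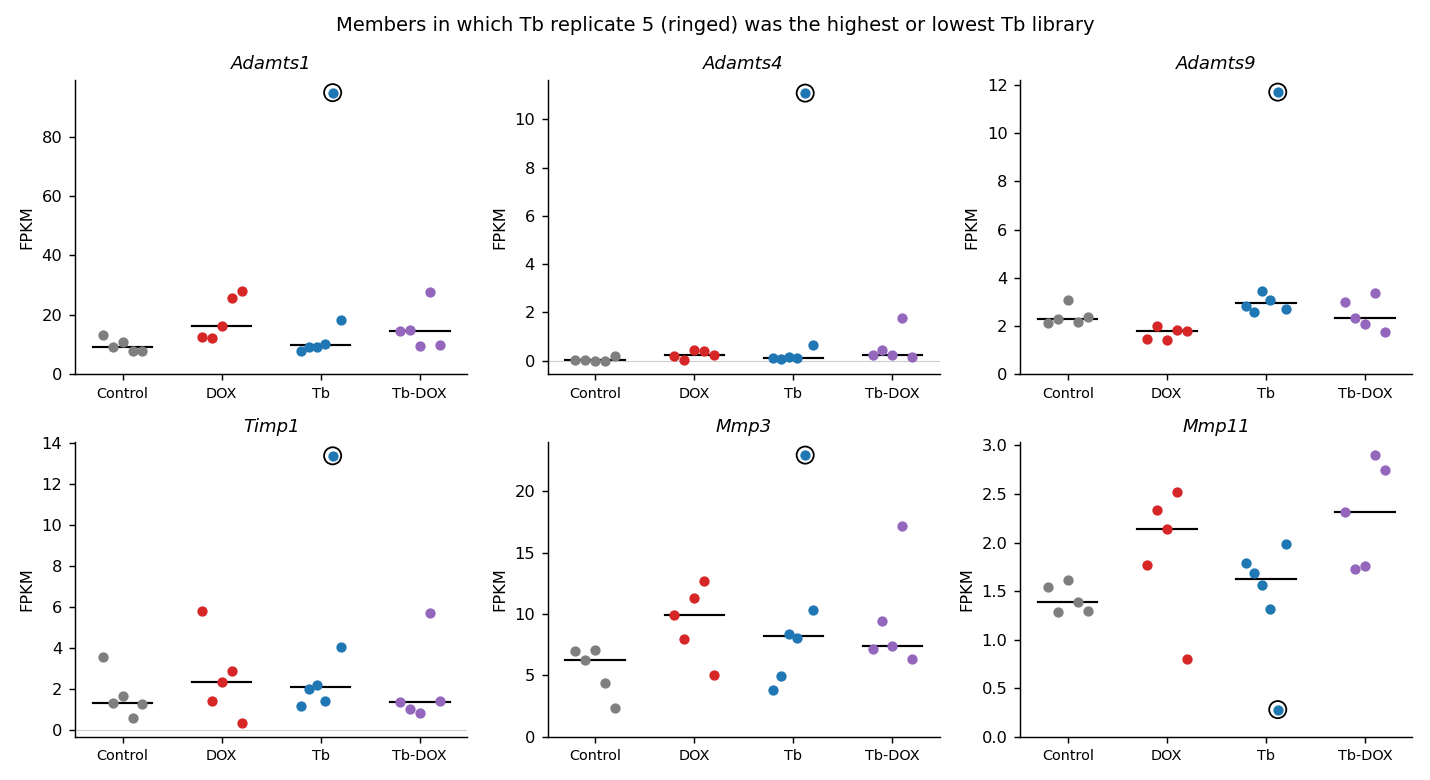
FPKM in each library for 6 genes in which Tb replicate 5 (ringed) was the highest or, for Mmp11, the lowest of the 6 Tb libraries, with black lines for group medians. The ringed dot of Adamts1 is at 94.78 FPKM, and the other 20 libraries are at 7.72 to 27.84 FPKM.

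The MMP genes are partly clustered. On chromosome 9 from 7272514 to 7699586 (GRCm39), 9 of them lie side by side (Mmp13, Mmp12, Mmp1b, Mmp3, Mmp1a, Mmp10, Mmp27, Mmp20 and Mmp7), and of these only Mmp3 passed the minimum. The AP-1 letters TGANTCA, where Fos and Jun dimers are known to bind, were in the promoter windows of 8 of the 35 genes with a RefSeq promoter (22.9%), against 6.75% of all 32851 promoters. All 8 were in this cluster, where Mmp27 was the gene without these letters. A match describes the letters and is no evidence of binding. The promoters of Mmp3, the abundant gene of the cluster, and of Mmp13, the collagenase, are shown for these letters, with AP-1 and TATA box letters in capitals, from chr9:7445572-7445821, plus strand, and chr9:7272264-7272513, plus strand (GRCm38.p6).
Mmp3: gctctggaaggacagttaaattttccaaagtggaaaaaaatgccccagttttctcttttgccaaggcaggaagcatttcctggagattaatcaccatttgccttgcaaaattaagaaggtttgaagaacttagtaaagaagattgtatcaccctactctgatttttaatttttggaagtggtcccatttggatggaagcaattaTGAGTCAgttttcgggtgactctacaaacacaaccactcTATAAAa
Mmp13: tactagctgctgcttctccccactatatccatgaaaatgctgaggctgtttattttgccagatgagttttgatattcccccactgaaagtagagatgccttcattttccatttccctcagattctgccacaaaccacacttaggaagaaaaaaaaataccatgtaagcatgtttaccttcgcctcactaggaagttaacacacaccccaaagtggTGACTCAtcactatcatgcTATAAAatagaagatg
In both windows the AP-1 letters stand a short way upstream of the TATA box. Mmp3 lay at 5.43 ± 2.04, 9.38 ± 3.0, 9.75 ± 6.90 and 9.50 ± 4.43 FPKM in Control, DOX, Tb and Tb-DOX, and the Tb mean was 7.10 ± 2.67 FPKM without Tb replicate 5, below those of DOX and Tb-DOX. Mmp13 lay at 0.44 ± 0.212, 0.064 ± 0.0313, 0.303 ± 0.161 and 0.162 ± 0.115 FPKM, lowest in DOX.

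The 22 genes below the minimum gave few counts. The highest count in any library was 204 for Mmp12, 71 for Adamts8, 67 for Adamts12, 58 for Adamts19, 57 for Adamts20, 50 for Adamtsl1, 37 for Mmp17, 34 for Adamts17, 33 for Adamts13, 32 for Mmp27, 30 for Mmp13, 25 for Adamts14 and 20 for Mmp16. It was 4 for Mmp24, 3 for Mmp20 and Mmp21, 2 for Adamts16 and Adamts18, and 1 for Mmp7 and Mmp10. Mmp1a and Mmp1b, the mouse counterparts of interstitial collagenase, had 0 counts in all 21 libraries, which allows up to 3 counts per library and covers counting error only. The metalloelastase Mmp12, a macrophage enzyme, ranged from 0 to 2.06 FPKM within Control and from 0.03 to 0.67 FPKM within DOX.

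Other genes of matrix proteolysis were read from a list of 34, of which 25 passed the minimum. With DOX and no tumor 4 rose and 11 fell (60.0% called, median log2 fold change −0.27), where 36.25% of all genes were called at a median of 0.00. The most abundant that rose were Bsg, an inducer of MMP expression (339 ± 58.2 to 395 ± 87.3 FPKM, 0.36 ± 0.11, adjusted p = 0.0176), the lysosomal protease Ctsl (28.0 ± 1.26 to 91.0 ± 55.1 FPKM, 1.81 ± 0.31, adjusted p = 0.000154) and the testican Spock2 (2.69 ± 1.61 to 16.4 ± 3.01 FPKM, 2.75 ± 0.50, adjusted p = 0.000314). The most abundant that fell were the lysosomal protease Ctsb (64.4 ± 2.22 to 41.7 ± 3.58 FPKM, −0.48 ± 0.09, adjusted p = 0.000396), the sheddase Adam10 (11.9 ± 1.42 to 8.41 ± 1.36 FPKM, −0.37 ± 0.11, adjusted p = 0.0145) and Pcolce, an enhancer of procollagen C-propeptide removal (9.16 ± 0.776 to 4.04 ± 0.446 FPKM, −1.05 ± 0.13, adjusted p = 7.37e-06). In tumor-bearing mice 1 rose with DOX (Spock2, 1.73 ± 0.46, adjusted p = 0.0346) and 4 fell (20% called, where 4.72% of all genes were). Without Tb replicate 5, Plau and Serpine2 were among those no longer called lower (adjusted p = 0.0529 and 0.0589), and Furin (0.45) and Pcsk6 (−0.88) were called.

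Of 17 matrix proteins that these enzymes are known to cleave or process, 14 passed the minimum. With DOX and no tumor 8 fell and 0 rose (57.1% called, median −0.83), where 18.2% of all genes fell and 18% rose. Without Tb replicate 5, Col4a1 (−0.35) was also called lower, and Thbs1 (1.10) and Dcn (0.31) were called higher. Among the 8 that fell with all libraries in the fit, the most abundant were Bgn (35.8 ± 3.18 to 10.9 ± 3.76 FPKM, −1.58 ± 0.20, adjusted p = 1.24e-05), Col3a1 (22.9 ± 6.72 to 1.59 ± 1.30 FPKM, −3.71 ± 0.50, adjusted p = 1.74e-05) and Col1a2 (11.99 ± 1.42 to 2.50 ± 0.940 FPKM, −2.12 ± 0.23, adjusted p = 3.21e-06). In tumor-bearing mice 5 fell with DOX and 0 rose (35.7% called, where 4.72% of all genes were), among them Col3a1 (−1.79 ± 0.44, adjusted p = 0.0236) and Col1a2 (−0.99 ± 0.22, adjusted p = 0.0137). Col1a1 was called lower as well without Tb replicate 5 (−0.95). In the interaction 4 of the 14 were called above 0 (28.6%, where 3.95% of all genes were) and 0 below. All 4 calls (Col1a1, Col1a2, Comp and Bgn) were lost without DOX replicate 4 (adjusted p of 0.0526 to 0.0668). For Col1a2 the interaction was 1.13 ± 0.31 (adjusted p = 0.0310, and 0.0569 without DOX replicate 4), and for Col3a1 it was 1.92 ± 0.62 (adjusted p = 0.0546). Adamts2, which processes the propeptides of these collagens, was lower with DOX in both states as given above.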

How the data were processed

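RNA of 21 mouse heart libraries (Control 5, DOX 5, Tb 6, Tb-DOX 5, grouped by the labels) was selected by oligo(dT) and sequenced on an Illumina platform. Per the labels, the submitters' processing notes name cutadapt, FastQC, HISAT2, HTSeq 0.6.1, DESeq2 1.34.0 and the GRCm39 build. The authors deposited 1 table with a count of reads per gene and library, not normalized, and with FPKM, which the authors computed from those counts, the gene length and the library total; FPKM recomputed from the counts matched 100% of the values within 0.0051. Whether counting used strand was not given in the sources used here. Depth was 13521200 to 18601445 counts per library, and intervals and limits from counts cover counting error only.

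Genes with a mean of at least 0.5 FPKM (13990 of 56691) were tested on the deposited counts with edgeR 4.0.16 (R 4.3.3; TMM scaling, quasi-likelihood F test), with all 21 libraries in 1 fit, with Benjamini-Hochberg adjustment across every gene tested. FPKM values are scaled by library totals and the fold changes by TMM. Groups were called not overlapping on FPKM, the scale of the printed values; TMM-scaled CPM was computed first, and the choice was made after both counts were known. Alternatives were median-ratio scaling, library totals alone, other minimums, only the groups compared, a replicate block, DESeq2 1.42.0, limma 3.58.1 on log2(FPKM + 0.1) and log2(FPKM + 1), stricter thresholds and each library left out, and, chosen after seeing the data, DOX replicate 4 and Tb replicate 5 left out together. The test was checked on simulated counts.

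Genes named are those called in DOX against Control, in Tb-DOX against Tb or in the interaction, the TIMPs, the 5 most abundant, the genes below the minimum by their highest count, and the 3 most abundant called in each direction of the other lists. All further genes were named after their values were seen. The members and lists were chosen with earlier results of these data known. Promoters came from RefSeq (GRCm38.p6), where 35 of the 49 genes matched, and no coordinates were converted between builds.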

Additional observations from a re-analysis of the deposited data

Results flagged for a closer look

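In 13 of 108 groups of a tested gene, 1 library lay far from the rest of its group by Dixon's test on log2(FPKM + 0.1). Chance alone gives this in about 1 of 20 groups. The values printed here are FPKM, on which the flagged groups can differ. Tb replicate 5 was highest for Adamts1 (94.78 FPKM, the rest 7.85 to 18.3), Adamts9 (11.7 FPKM, the rest 2.59 to 3.43) and Adamts4 (11.08 FPKM, the rest 0.08 to 0.64). It was lowest for Adamtsl5 (7.6 FPKM, the rest 12.12 to 14.24), Mmp15 (3.5 FPKM, the rest 7.35 to 11.28), Adamts7 (0.93 FPKM, the rest 2.34 to 3.82) and Mmp11 (0.28 FPKM, the rest 1.32 to 1.99). Tb replicate 3 was lowest for Adamts5 (2.24 FPKM, the rest 2.74 to 2.92). Among the Tb-DOX libraries, replicate 4 was highest for Timp1 (5.71 FPKM, the rest 0.83 to 1.4) and Adamts2 (2.03 FPKM, the rest 1.04 to 1.23), replicate 3 was lowest for Timp4 (8.19 FPKM, the rest 13.04 to 15.24), and replicate 1 was lowest for Adamts7 (3.22 FPKM, the rest 3.92 to 4.16). Control replicate 4 was lowest for Mmp28 (0.51 FPKM, the rest 0.86 to 1.04).

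The DOX effect differed between tumor-bearing and other mice by the interaction test for Mmp14 (−1.72 on the log2 scale), Adamts15 (−1.74) and Mmp15 (1.11). The cause of these differences was not tested.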

How the results depend on the processing

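The main counts of called genes were 13 (DOX against Control), 2 (Tb-DOX against Tb), 3 (Tb against Control), 5 (Tb-DOX against DOX) and 3 (interaction), and none of the called fold changes of the named genes reversed. In the same order, leaving out each library gave 10 to 17, 1 to 4, 1 to 4, 2 to 7 and 1 to 5, while the share called of all genes ranged over 30.9% to 42.5%, 1.86% to 6.7%, 4.25% to 8.61%, 12.5% to 24.9% and 4.7% to 12.3%. At a mean of at least 5 FPKM only 9 of the genes were tested, with 4, 0, 0, 3 and 1 called (44%, 8.49%, 5.89%, 16.7% and 9.72% of all genes tested there). At an adjusted p under 0.01 the counts were 7, 1, 1, 1 and 0 (22.2%, 0.965%, 3.12%, 7.71% and 0.436% of all genes), and with a change of at least 2-fold 6 (DOX against Control, 9.95% of all genes), 1 (Tb-DOX against Tb, 1.11%) and 2 (Tb-DOX against DOX, 5.62%). In Tb-DOX against DOX, library totals alone gave 3 (20.3% of all genes), no minimum gave 8 with 47 genes tested (6.45%), and limma with a pseudocount of 0.1 or 1 gave 3 (19.7% and 19%). In Tb against Control, limma with either gave 1 (4.39% and 4.71%). Without DOX replicate 4 and Tb replicate 5, 5 genes were called in Tb-DOX against Tb, where 7.18% of all genes were: Adamts3 higher (0.59) and Timp2 (−0.28), Adamtsl5 (−0.40), Adamts2 (−0.59) and Adamtsl2 (−1.44) lower. Where no construction of the alternative explains a change, the cause was not tested.

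With replicate number as a block (replicate block), 1 gene was called in Tb against Control (3.37% of all genes) and 0 in the interaction (adjusted p = 0.0518, 0.0673 and 0.0806 for Adamts15, Mmp14 and Mmp15), where 3.64% of all genes were, and 12, 3 and 5 in DOX against Control, Tb-DOX against Tb and Tb-DOX against DOX (34.9%, 5.66% and 15.4%). Same-numbered libraries shared only a number, since their deviations from the group means correlated at −0.219 to 0.194. DESeq2 gave 13, 3, 3, 6 and 3 (38.4%, 7.46%, 8.16%, 20.6% and 14.2% of all genes), and 1 gene had no adjusted p there. Genes at a few counts per library, such as Adamts4 in Control, are limited by depth.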

Other observations

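Without the minimum on FPKM (34543 genes, 47 of the 49 tested), 3 genes of low level were called; they are named here after their values were seen. The collagenase Mmp13 had 10, 30, 16, 11 and 21 counts in the Control libraries and 2, 3, 2, 4 and 1 in the DOX libraries, without overlap, and it was lower with DOX (log2 fold change −2.65 ± 0.60, edgeR adjusted p = 0.0017). Adamts8, a proteoglycan-cleaving relative and chromosomal neighbour of Adamts15, was higher with a tumor on saline (1.48 ± 0.38, adjusted p = 0.0152) and on DOX (2.07 ± 0.42, adjusted p = 0.00115). Adamts20 was lower in Tb-DOX than in DOX (−1.73 ± 0.51, adjusted p = 0.0337), where DOX replicate 4 alone held 57 counts.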
